A study of Rattus norvegicus with 10 samples.

Results

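The neuropeptide precursor genes Pdyn (ENSRNOG00000026036), Cartpt (ENSRNOG00000017712) and Calcb (ENSRNOG00000011074) are described here in all 10 supraoptic nuclei (SONs) of the series, as 3 of the 32402 genes in the count table. They were picked by identifier because their levels were known to be lower after knockdown of the transcription factor Creb3l1, so the knockdown differences of these 3 genes are a description. Whether a test across all genes called them is stated below, with no p-value, and supports nothing. The variation of the 3 genes among SONs of the same group was tested after the group means were subtracted. The choice can still bear on it, because a knockdown effect that differed between SONs would enter this variation.

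In the study, 5 male Sprague-Dawley rats of 250 to 274 g received an adeno-associated virus (AAV) with a non-targeting control short hairpin RNA (shRNA) in the left SON and an AAV with a Creb3l1 shRNA in the right SON. Both groups therefore carried a virus and a hairpin, and side and treatment cannot be told apart. After 3 weeks each SON was collected with a 1 mm punch from frozen sections, and its poly(A) RNA was sequenced. A punch holds all the cells of the region, including any that the virus did not reach, so that fewer cells of a type and less RNA per cell cannot be told apart. SONs are named by group and by animal number, and the control and knockdown SON with the same number came from the same animal.

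Magnocellular neurones of the SON make vasopressin or oxytocin and send these hormones to the posterior pituitary in dense core granules. They also package other peptides. Pdyn encodes prodynorphin, the precursor of the dynorphins, which act on the kappa opioid receptor and are released with vasopressin. Cartpt encodes the precursor of the CART peptides, a group of hypothalamic peptides known for their part in feeding and stress. Calcb encodes the beta form of calcitonin gene-related peptide (CGRP), a vasodilator peptide best known from sensory neurones. Creb3l1 is a transcription factor held in the endoplasmic reticulum membrane until it is cleaved, and it belongs to the family whose members bind elements with an ACGT core.

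The 250 bases before the start of Pdyn and of Cartpt are shown because these genes co-varied most among the 3, and the windows were searched for short elements that such factors and Sp factors can bind. The sequences are from RefSeq on GRCr8, a later build than the Rn6 used for counting, with the gene start to the right. Calcb was not matched, so 2 of the 3 genes have a sequence. Capitals mark matches on either strand to any of 3 motifs. The E-box CACGTG was found in 5.59% of 33469 rat windows of this length, the sequence TGACGT, which is part of the cyclic AMP response element, in 6.95%, and the GC-rich motif CCGCCC in 30.5%.
Pdyn, chr3:137366504-137366753, minus strand: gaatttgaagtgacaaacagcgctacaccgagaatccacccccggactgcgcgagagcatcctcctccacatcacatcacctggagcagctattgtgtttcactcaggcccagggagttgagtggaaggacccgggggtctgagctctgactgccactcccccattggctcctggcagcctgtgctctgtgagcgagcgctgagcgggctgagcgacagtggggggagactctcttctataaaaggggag
Cartpt, chr2:32991236-32991485, minus strand: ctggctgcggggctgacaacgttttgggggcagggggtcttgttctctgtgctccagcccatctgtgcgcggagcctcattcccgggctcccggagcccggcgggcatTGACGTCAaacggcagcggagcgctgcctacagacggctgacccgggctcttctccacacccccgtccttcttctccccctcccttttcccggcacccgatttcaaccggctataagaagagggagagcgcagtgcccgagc
The Cartpt window held TGACGT on both strands, overlapping in 1 run of 8 bases, TGACGTCA, which lay 142 to 135 bases before the start. This run reads the same on both strands, so the matches are 1 stretch read both ways. The Pdyn window held none of the 3 motifs, which says only that these letters are not in these 250 bases. A match is a description of letters and not a bound site.

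Total counts were between 29020948 and 34382889 per SON. Levels are given in CPM, the count divided by the effective library size and put on the usual per-million scale, with TMM factors, which correct for differences in RNA composition between libraries. These values are not divided by transcript length, so a gene is compared with itself between SONs and not with another gene. Of 60 marker genes of 10 cell types, Sim1, a transcription factor needed for magnocellular neurones, was the 1 that could be named in the table, and it was present in every SON, at 44.5 to 72.8 CPM in control and 15.6 to 35.3 CPM in knockdown SONs. The identity of the punches could not be checked beyond this gene.

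Creb3l1 itself (ENSRNOG00000005413) was measured first as the check of the labels. In animals 1 to 5 it had 20.3, 26.5, 30.7, 33.5 and 23.4 CPM in the control SON. In the knockdown SONs of these animals it had 7.10, 13.8, 8.69, 16.7 and 13.6 CPM. The groups did not overlap, and the knockdown SONs kept 35.0%, 52.2%, 28.3%, 49.7% and 58.4% of the level on the other side. The log2 difference was -1.16 (standard error 0.24, n = 5 per group, adjusted p = 0.0173 by the edgeR quasi-likelihood method, Benjamini-Hochberg over 16286 genes). With the animal as a replicate block the edgeR difference was -1.21 with an adjusted p of 0.0586, and all settings that used the 10 SONs gave an adjusted p between 0.000136 and 0.0586.

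Pdyn was lower in the knockdown SON of every animal, by an amount that differed widely from animal to animal. The control SONs of animals 1 to 5 had 544, 324, 416, 600.0 and 465 CPM, from 10857 to 19957 counts. The knockdown SONs had 90.6, 82.8, 259, 138 and 27.4 CPM, from 849 to 7776 counts. The groups did not overlap, and the highest knockdown SON, that of animal 3, was nearest to the lowest control SON, that of animal 2. The means were 470 ± 108 CPM in control and 120 ± 87.2 CPM in knockdown SONs (SD, n = 5 each), and the edgeR log2 difference was -1.97 (standard error 0.48). Each knockdown SON kept 16.7%, 25.5%, 62.2%, 23.1% and 5.89% of the Pdyn level in the control SON of its animal.

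**Figure D1:**
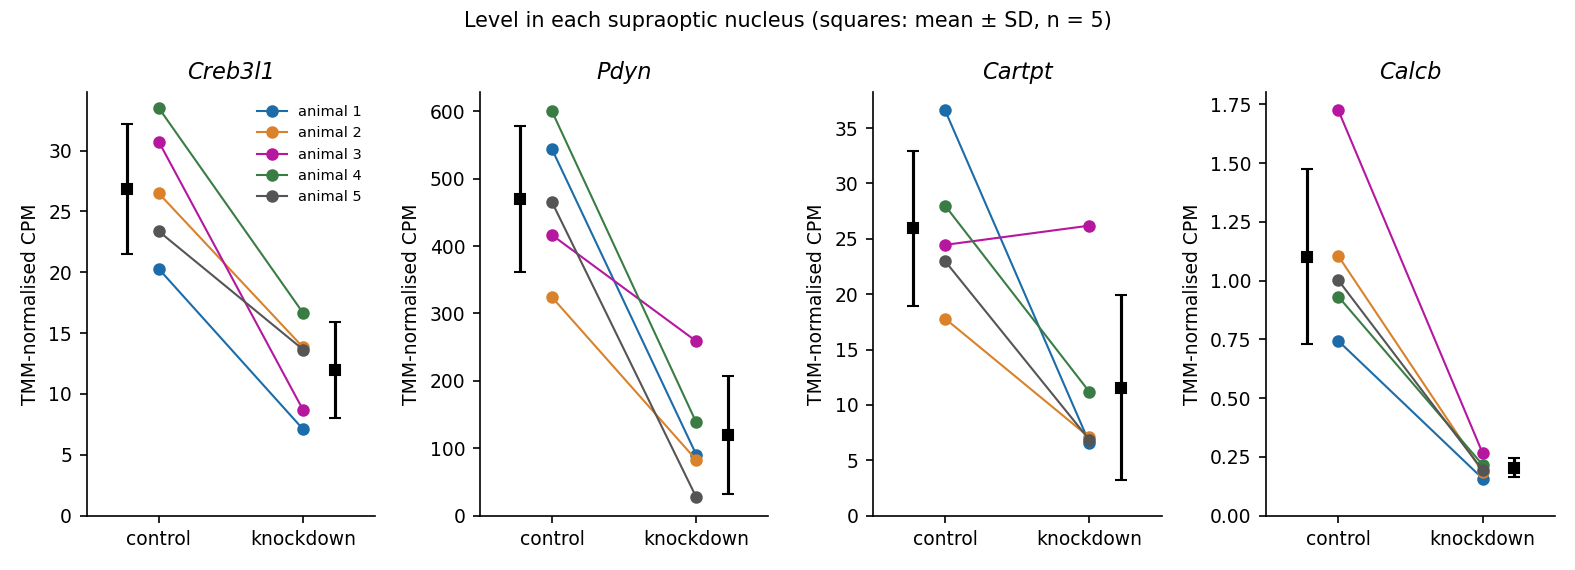
Levels of Creb3l1, Pdyn, Cartpt and Calcb in TMM-normalised CPM on linear axes that start at 0, with 1 point for each SON, a line joining the control and knockdown SON of an animal, and black squares with bars for the mean ± SD of 5 SONs. The lines for Creb3l1, Pdyn and Calcb all go down, and the Cartpt line of animal 3 goes from 24.5 to 26.2 CPM.

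The spread of Pdyn was wider among knockdown than among control SONs. The highest and lowest control SON differed 1.85-fold, and the highest and lowest knockdown SON 9.45-fold. On the log2 scale the SD was 0.35 in control and 1.19 in knockdown SONs. Counting error was small against this, since it alone would give a coefficient of variation of 0.821% in control and 2.14% in knockdown SONs, where 23.0% and 72.9% were measured.

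Cartpt was lower in the knockdown SON of 4 of the 5 animals. The control SONs of animals 1 to 5 had 36.6, 17.8, 24.5, 28.0 and 23.0 CPM, from 596 to 1083 counts. The knockdown SONs had 6.57, 7.07, 26.2, 11.2 and 6.84 CPM, from 208 to 787 counts. The groups overlapped through animal 3 alone, whose knockdown SON was above 3 of the 5 control SONs, while the other 4 knockdown SONs were below every control SON. The means were 26.0 ± 6.98 CPM in control and 11.6 ± 8.39 CPM in knockdown SONs (SD, n = 5 each), and the edgeR log2 difference was -1.17 (standard error 0.40). The share of the control level kept in each animal was 17.9%, 39.7%, 107%, 39.9% and 29.8%. Without the knockdown SON of animal 3 the log2 difference was -1.73 (standard error 0.23), and with each other SON left out it was between -1.30 and -1.02.

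Calcb had the most even measured difference of the 3 genes but the fewest reads, too few to tell this evenness from counting error. The control SONs of animals 1 to 5 held 22, 37, 60, 31 and 34 counts, which are 0.743, 1.10, 1.72, 0.932 and 1.00 CPM. The knockdown SONs held 5, 6, 8, 6 and 6 counts, or 0.158, 0.186, 0.266, 0.216 and 0.194 CPM. No knockdown SON reached the lowest control SON. The means were 1.10 ± 0.372 and 0.204 ± 0.0406 CPM (SD, n = 5 each), the summed counts were 184 and 31, and the edgeR log2 difference was -2.42 (standard error 0.28). Each knockdown SON kept 21.2%, 16.8%, 15.4%, 23.2% and 19.3% of its animal's control level.

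Depth limits what can be said of Calcb. The exact Poisson 95% interval of the highest knockdown count, 8, is 3.45 to 15.8, and that of the lowest control count, 22, is 13.8 to 33.3. These intervals cover counting error only, and they overlap for this pair of SONs. Among the knockdown SONs the measured coefficient of variation was 19.9% and counting error alone would give 40.6%, so differences between these SONs were not detectable at this depth. Calcb passed the filter on low counts through its control SONs, because no knockdown SON had 10 counts. Its close paralogue Calca, which encodes the alpha form of CGRP, could share reads with it, and how reads that fit both places were counted is not given in the sources used here.

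In the edgeR test across all genes, 2 of the 3 genes, Pdyn and Calcb, were past the threshold of adjusted p under 0.05 and lower in knockdown, against 4.49% of all genes tested, and Cartpt was not past it. Knockdown SONs lay wholly below control SONs for the same 2 genes, and for 5.5% of all genes tested. A lower level in all 5 animals was seen for these 2 genes and for 10.1% of all genes tested. Because the genes were chosen with this contrast known, their counts are a description only. DESeq2 and limma-voom called all 3 genes, as did edgeR with 1 surrogate variable. With the animal as a replicate block only Calcb was called, where 0.043% of all genes were called lower. With 1 SON left out, 7 of the 10 edgeR fits called Calcb alone (without control replicates 1, 3, 4 or 5 or knockdown replicates 1, 2 or 4), 2 called Pdyn and Calcb (without control replicate 2 or knockdown replicate 5), and 1 called all 3 (without knockdown replicate 3). Over these 10 fits between 310 and 1103 genes in all were called lower, the most without knockdown replicate 3. With at least 10 counts in every sample, where 766 genes were called lower, Pdyn was called, Cartpt was not, and Calcb was not tested.

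**Figure D2:**
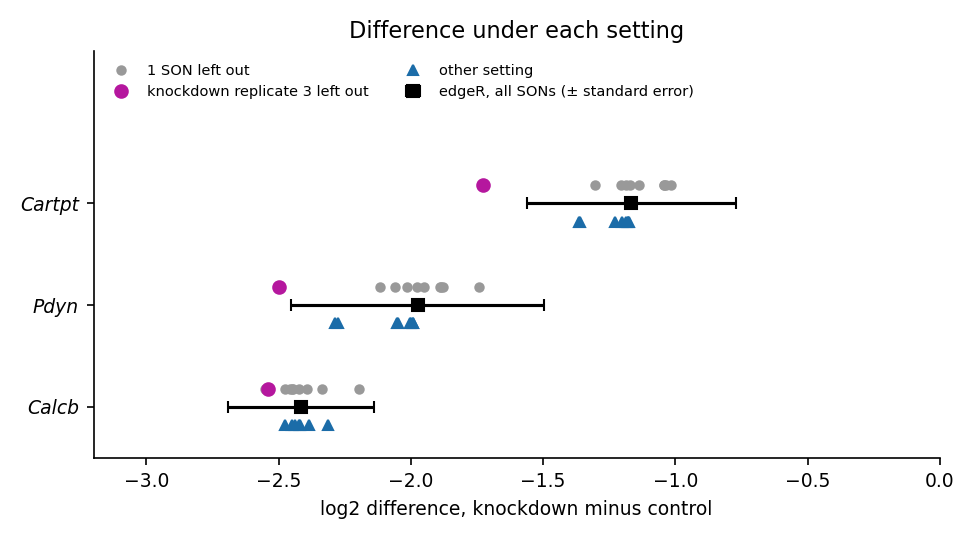
Log2 difference between knockdown and control SONs for each gene (x axis), with the edgeR estimate from all 10 SONs ± its standard error as black squares, the fits that leave out 1 SON as circles and the other settings as triangles. All values lie below 0, and the fits without knockdown replicate 3 lie at -2.50 for Pdyn, -1.73 for Cartpt and -2.54 for Calcb.

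The animals did not rank alike for Creb3l1 and for Pdyn or Cartpt. Calcb, with 5 to 8 knockdown counts, gives no rank of animals. Animal 3 kept the least Creb3l1 (28.3%) of the 5 animals. The same animal kept the most Pdyn (62.2%) and the most Cartpt (107%). Animal 5 kept the most Creb3l1 (58.4%) and the least Pdyn (5.89%). Animal 1 went the other way, with little Creb3l1 (35.0%), little Pdyn (16.7%) and the least Cartpt (17.9%). Animals 2 and 4 lay between for Creb3l1 (52.2% and 49.7%), and kept 25.5% and 23.1% of Pdyn and 39.7% and 39.9% of Cartpt. The Sim1 transcript, which is not a peptide gene, was also kept most in animal 3 (79.3%, against 31.8% to 43.7% in the other 4), and its part in the result was not tested.

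**Figure D3:**
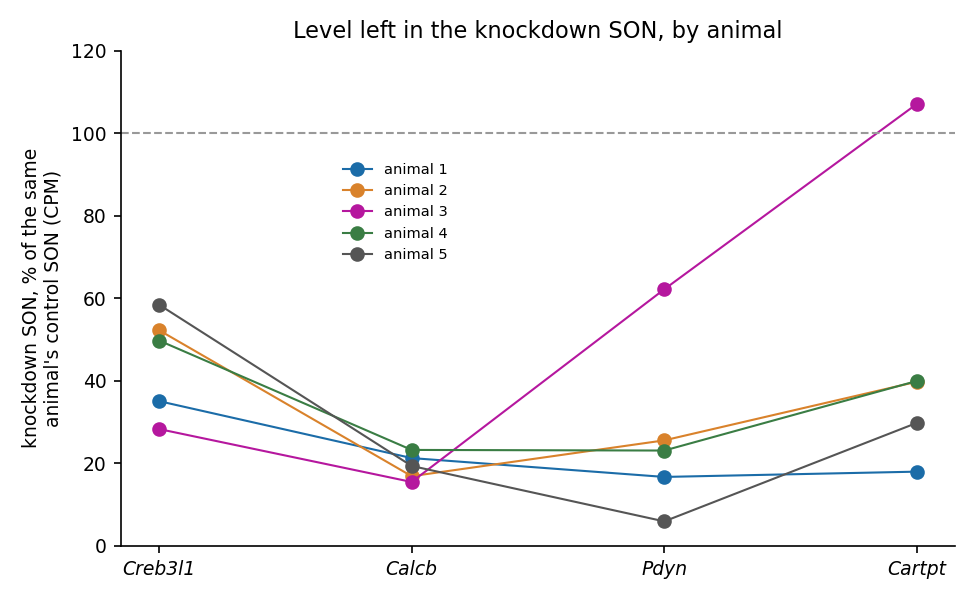
Level in the knockdown SON as a percent of the control SON of the same animal (y axis, from TMM-normalised CPM) for Creb3l1 and the 3 peptide genes, with 1 colour and 1 line for each animal and a dashed line at 100%. Animal 3 has the lowest point for Creb3l1 and the highest for Pdyn and Cartpt, animal 1 has the lowest for Cartpt, and animal 5 has the highest point for Creb3l1 and the lowest for Pdyn.

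Set against each other within an animal, the 3 genes differed in how much of the control level remained. Cartpt kept a larger share than Pdyn in 5 of 5 animals, with log2 differences between the 2 changes from 0.11 to 2.34 (mean 0.93 ± 0.83 SD). In counts of the same library, which need no scaling between SONs, there were 67.3, 54.9, 58.7, 46.7 and 49.4 Cartpt counts per 1000 Pdyn counts in the control SONs of animals 1 to 5. The knockdown SONs had 72.5, 85.5, 101, 80.8 and 249.7. The 5 knockdown ratios were all above the 5 control ratios, most of all in animal 5, where Pdyn was lowest, and least in animal 1. For Calcb the log2 differences ran from -2.79 to 0.24 against Cartpt and from -2.01 to 1.71 against Pdyn, and no direction per animal is read from them because each rests on 5 to 8 knockdown counts. These ratios use the knockdown contrast that chose the genes and were not tested.

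Co-variation within the groups does not use the difference of the group means. It is not independent of the choice, because a knockdown effect that differed between SONs would enter it. The log2 SD was larger in knockdown than in control SONs for Pdyn (1.19 and 0.35) and Cartpt (0.84 and 0.38). For Calcb it was smaller (0.21 and 0.42), which is not read as a smaller spread. Its knockdown SONs held 5 to 8 counts, and the prior count used for log2 CPM draws such low counts together. For each gene the group mean of log2 CPM (prior count 2) was subtracted from each SON, and the 10 deviations were correlated between genes. Both p-values of each relation are exact two-sided values from all 14400 permutations of 1 gene's deviations within the groups. These permutations treat the 10 SONs as separate units, although the SONs came in pairs from the same animals. As 1 family, 9 relations were computed, the 3 pairs of peptide genes and each peptide gene with Creb3l1 and with Sim1. None of the 9 passed an adjusted p of 0.05 by this test, and 2 had an unadjusted p under 0.05, by r and by rho alike. Avp and Oxt were also planned as partners but had no symbol. Sim1 had one, and symbols covered the genes ranked highest by p in the study's knockdown comparison. A knockdown effect that differed between SONs could therefore enter the deviations of Sim1 as well, so its relations are not free of that contrast.

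Pdyn and Cartpt co-varied most among the pairs of peptide genes. Pearson's r was 0.80 (n = 10 SONs, exact permutation p = 0.0378, adjusted 0.17) and Spearman's rho 0.82 (exact permutation p = 0.0182, adjusted 0.163). The knockdown SON of animal 3 stood 1.46 above its group mean in Pdyn and 1.40 above it in Cartpt on the log2 scale, while that of animal 5 stood at -1.78 in Pdyn and -0.52 in Cartpt. Without these 2 SONs, which were farthest from the median of Pdyn, r was 0.88, so the relation did not rest on them together. Leaving out the knockdown SON of animal 3 alone gave the lowest r, 0.59 (adjusted exact permutation p = 0.339), and leaving out that of animal 5 the highest, 0.96 (adjusted exact permutation p = 0.0344). This was the 1 of 10 such fits that passed, and the other 8 had an adjusted p of 0.167 to 0.304. An r with Pdyn at least this far from 0 was found for 2.18% of 14817 other genes with a mean of at least 1 CPM.

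Calcb did not show a relation to either of the other peptide genes. Its r was 0.13 with Pdyn (n = 10, exact permutation p = 0.642, adjusted 0.801) and 0.20 with Cartpt (n = 10, exact permutation p = 0.502, adjusted 0.801). Spearman's rho was 0.03 with Pdyn (exact permutation p = 0.947, adjusted 0.947) and 0.21 with Cartpt (exact permutation p = 0.556, adjusted 0.947). Without the 2 SONs farthest from the median of the other gene r was -0.26 with Pdyn and 0.20 with Cartpt. Counting error in the knockdown SONs, given above, bounds what any relation of Calcb could show there.

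Creb3l1 showed no relation to the peptide genes that passed the test. Its r was -0.25 with Pdyn (exact permutation p = 0.632, adjusted 0.801), -0.21 with Cartpt (exact permutation p = 0.712, adjusted 0.801) and 0.31 with Calcb (exact permutation p = 0.330, adjusted 0.743), each over 10 SONs. The values of rho were -0.07 (exact permutation p = 0.880), 0.07 (p = 0.880) and 0.20 (p = 0.585), each adjusted 0.947. Without the 2 SONs farthest from the median of the peptide gene, r became 0.29 with Pdyn, 0.61 with Cartpt and 0.05 with Calcb, so the negative values for Pdyn and Cartpt rested on those SONs.

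Sim1 had the highest r with Pdyn over 10 SONs in the family, while Cartpt was ahead of it by rho and without the 2 farthest SONs. The r of Sim1 was 0.84 with Pdyn (n = 10, exact permutation p = 0.00868, adjusted 0.0781), 0.68 with Cartpt (exact permutation p = 0.0672, adjusted 0.201) and 0.05 with Calcb (exact permutation p = 0.877, adjusted 0.877). Its rho was 0.77 with Pdyn (n = 10, exact permutation p = 0.0361, adjusted 0.163), 0.54 with Cartpt (p = 0.186, adjusted 0.559) and 0.10 with Calcb (p = 0.789, adjusted 0.947). Without the 2 farthest SONs r was 0.60, 0.56 and 0.51. Of the 10 fits that left out 1 SON, the relation of Sim1 and Pdyn passed in 1, without the control SON of animal 2 (r = 0.89, adjusted exact permutation p = 0.00313). In the other 9 the adjusted p was 0.0719 to 0.270, the highest without the knockdown SON of animal 3. Sim1 was lower in knockdown in 5 of 5 animals, and whether the SONs held different shares of magnocellular neurones was not tested.

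**Figure D4:**
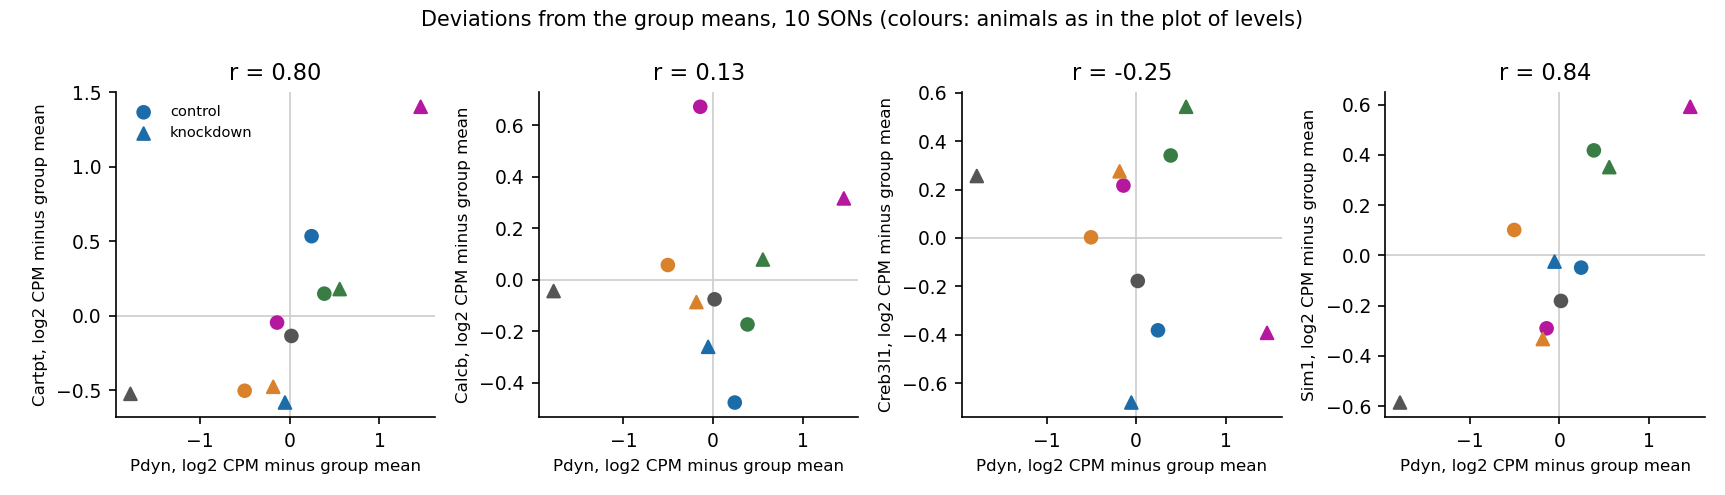
Deviations from the group mean in log2 CPM of Cartpt, Calcb, Creb3l1 and Sim1 (y axes) against those of Pdyn (x axes), with circles for control and triangles for knockdown SONs, coloured by animal, and Pearson's r above each panel. The points of Cartpt and Sim1 rise with Pdyn, with the knockdown SONs of animals 3 and 5 at the ends, and the points of Calcb and Creb3l1 show no slope that passed the test.

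A large part of the variation within groups was shared by many genes. The first component of the deviations of 14818 genes held 67.0% of their variance, and the size of its correlation was 0.53 for Pdyn, 0.52 for Sim1, 0.20 for Cartpt, 0.15 for Calcb and 0.12 for Creb3l1, as a description over 10 SONs. Genes whose deviations were most like those of a member were ranked on this scale, with no test. For Pdyn, 83 of 14817 genes had an r of at least 0.9, led by Kcnmb4, a subunit of the large conductance calcium-activated potassium channel, RGD1310209 and Syt4, a synaptotagmin of dense core granules, each at 0.99. For Cartpt, 6 genes reached 0.9, led by Osgepl1, Glp1r, the receptor of glucagon-like peptide 1, and Mrps26, each at 0.93. For Calcb none did, and the highest were ENSRNOG00000001474 at 0.87 and ENSRNOG00000004712 and ENSRNOG00000004956 at 0.85. Without the 2 farthest SONs r was 0.92, 0.96 and 0.89 for the 3 genes like Pdyn and 0.89, 0.81 and 0.81 for those like Cartpt. In the main fit Osgepl1 and Mrps26 were lower in knockdown SONs, by log2 differences of -0.50 and -1.09 (edgeR adjusted p = 0.0135 and 0.00527). So was RGD1310209 (-1.34, edgeR adjusted p = 0.0395), while Kcnmb4, Syt4 and the genes like Calcb were not past the threshold. Glp1r was also lower in knockdown SONs, with a log2 difference of -2.42 (standard error 0.50, n = 5 per group, edgeR adjusted p = 0.0182, Benjamini-Hochberg). Its edgeR adjusted p was 0.0706 with the replicate block, 0.0574 without knockdown replicate 1 and 0.0504 without knockdown replicate 2. Over the settings with all SONs the adjusted p of Glp1r ranged from 1.24e-05 (DESeq2) to 0.0706. Without knockdown replicate 3 its log2 difference was -3.18.

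The receptors of these peptides could be named in part. The symbols used here cover 1999 genes, those ranked highest by p in the study's own knockdown comparison, so a gene in a list could be named mainly because it differed, and counts over the lists say nothing. Of 14 genes of opioid, candidate CART and CGRP receptors and their accessory proteins, 2 had a name. Oprk1, the kappa opioid receptor on which dynorphins act, had 34.0 ± 3.40 CPM in control and 19.6 ± 4.13 CPM in knockdown SONs (SD, n = 5 each), with ranges of 30.2 to 38.9 and 14.6 to 24.6 that did not overlap. It fell by 0.79 as a log2 difference (standard error 0.14, lower in 5 of 5 animals, edgeR adjusted p = 0.0109, Benjamini-Hochberg), and with the replicate block the adjusted p was 0.0936, in a range over the alternatives from 1.51e-05 to 0.0936. Crcp, listed as an accessory protein and not as a receptor, rose from 34.6 ± 3.01 to 49.5 ± 3.68 CPM (SD, n = 5 each), with a log2 difference of 0.52 (standard error 0.08, edgeR adjusted p = 0.00581, Benjamini-Hochberg). Its edgeR adjusted p was 0.0880 with the block, and over the alternatives the adjusted p ranged from 7.64e-07 (DESeq2) to 0.0880. The r of Oprk1 was 0.66 with Pdyn over 10 SONs and -0.05 without the 2 farthest SONs.

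Genes that cut, sort or release peptides could be named for 7 of 34. Ptprn, a membrane protein of dense core granules, fell from 1103 ± 148 to 592 ± 183 CPM (SD, n = 5 each), by 0.90 in log2 (standard error 0.21, edgeR adjusted p = 0.0270, Benjamini-Hochberg). Cadps2, which primes granules for release, fell by 0.82 (standard error 0.20, edgeR adjusted p = 0.0340), and Pcsk5, a proprotein convertase, by 1.02 (standard error 0.26, edgeR adjusted p = 0.0407). None of these 3 calls was kept with the replicate block (edgeR adjusted p = 0.0923, 0.0978 and 0.114), and 5, 3 and 2 of 10 fits that left out 1 SON kept them, where all 10 kept that of Oprk1. The lowest adjusted p over all-SON alternatives was 0.000452, 0.00182 and 0.00261. The call of Ptprn was kept without control replicates 1 or 2 or knockdown replicates 3, 4 or 5, that of Cadps2 without control replicate 2 or knockdown replicates 3 or 5, and that of Pcsk5 without control replicate 2 or knockdown replicate 3. The granins and chaperones Scg3 and Scg5, Syt4 and the aminopeptidase Rnpep were not past the threshold in this fit (log2 differences -0.54, -0.62, -0.46 and -0.21, edgeR adjusted p = 0.0529, 0.0977, 0.0618 and 0.0719). Other settings with all SONs called Scg3 in 6 of 8, Scg5 in 2, Syt4 in 5 and Rnpep in 3, and their adjusted p ranged from 0.00284 to 0.142, from 0.00738 to 0.178, from 0.01002 to 0.163 and from 0.0140 to 0.203. Without knockdown replicate 3 the adjusted p of Scg3, Scg5 and Syt4 in edgeR was 0.00622, 0.00940 and 0.0148, and without knockdown replicate 5 that of Rnpep was 0.0414.

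The granule genes differed in how closely they followed Pdyn. Syt4, Ptprn, Cadps2 and Pcsk5 had r of 0.99, 0.97, 0.97 and 0.95 with Pdyn over 10 SONs, and 0.89, 0.88, 0.94 and 0.83 without the 2 farthest SONs. Their rho over 10 SONs was 0.94, 0.95, 0.98 and 0.94. Scg3 and Scg5 had r of 0.76 and 0.73, but rho of 0.32 and 0.14, and r of -0.44 and -0.73 without the 2 farthest SONs, so their likeness to Pdyn rested on the knockdown SONs of animals 3 and 5. Rnpep had an r of -0.39. With Cartpt the 7 genes had r from -0.06 to 0.80 and with Calcb from -0.43 to 0.33. The 7 genes could be named mainly because they ranked high by p in the study's knockdown comparison. A knockdown effect that differed between SONs could enter these r, and 83 of 14817 genes reached 0.9 with Pdyn. The values are a description with no test.

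**Figure D5:**
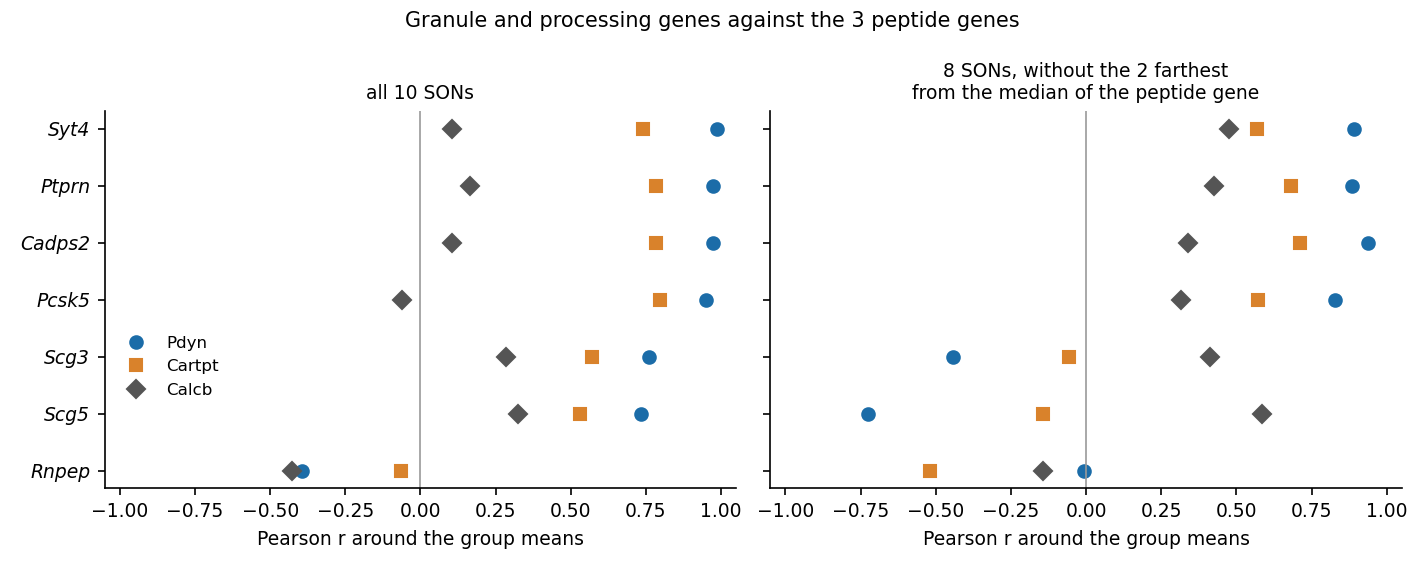
Pearson's r of the deviations of 7 granule and processing genes (rows) with those of Pdyn (circles), Cartpt (squares) and Calcb (diamonds), over all 10 SONs on the left and over 8 SONs on the right, without the 2 farthest from the median of the peptide gene. Syt4, Ptprn, Cadps2 and Pcsk5 stay at 0.83 or above with Pdyn on both sides, and Scg3 and Scg5 change sign.

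Other peptide precursor and granin genes could be named for 3 of 50. Chgb, which encodes the granule protein chromogranin B, had 513 ± 27.4 CPM in control and 361 ± 85.3 CPM in knockdown SONs (SD, n = 5 each), a log2 difference of -0.51 with an edgeR adjusted p of 0.0728. Nppc, the precursor of C-type natriuretic peptide, had a log2 difference of -1.07 (edgeR adjusted p = 0.0601), and Adm, the precursor of adrenomedullin, one of 0.56 (edgeR adjusted p = 0.0765), all with Benjamini-Hochberg adjustment. None of the 3 was past the threshold in the main edgeR fit. With 1 surrogate variable edgeR called all 3 (adjusted p = 0.00743 for Chgb, 0.00854 for Nppc and 0.0384 for Adm). DESeq2 also called all 3 (adjusted p = 0.0160 for Chgb, 0.0103 for Nppc and 0.0322 for Adm), and limma-voom called Nppc alone (adjusted p = 0.0431). With library size only, edgeR called Chgb (adjusted p = 0.0403) and Nppc (adjusted p = 0.0487), and with the replicate block it called none of them. Without knockdown replicate 3 the edgeR adjusted p was 0.0163 for Chgb and 0.0173 for Nppc, and without knockdown replicate 1 it was 0.0482 for Adm. Over the all-SON alternatives, with DESeq2 and limma-voom among them, the adjusted p lay between 0.00743 and 0.150 for Chgb and between 0.00854 and 0.162 for Nppc. For Adm it lay between 0.0322 (DESeq2) and 0.216 (edgeR with the replicate block). Avp, Oxt, Calca and the other genes of this list had no symbol among those used here and were not analysed here.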

How the data were processed

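Reads were quality-trimmed by the authors, aligned with STAR to the rat Rn6 assembly and summed for each gene by featureCounts. The authors deposited these raw counts, with no normalisation. How reads mapping to several places were handled is not given in the sources used here. Symbols for 1999 identifiers came from a supplementary table of the study. Its test values did not enter the fits, but its ranking by p decided which genes had a symbol.

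From the counts, genes were filtered with filterByExpr (minimum count 10), leaving 16286 of 24286 genes with at least 1 count. They were scaled with TMM factors and tested with edgeR 4.0.16 (R 4.3.3, quasi-likelihood, Benjamini-Hochberg over all genes). The smallest library had 29020948 counts, and 3 counts were taken as the floor. No replicates agreed within sampling noise (lowest chi-square per degree of freedom 29.1). The fit had no term for the animal, and the study's methods name none. Pairing comes from the animals. Deviations of the left and right SON correlated at -0.12, 0.45, -0.44, -0.32 and -0.55 over genes. The mean was -0.20 for SONs of the same animal and 0.05 for SONs of different animals, which was not tested. Co-variation was tested by exact permutation within groups, and the tests were tried on simulated data.

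Alternatives were DESeq2 1.42.0, limma-voom (limma 3.58.1), a replicate block, RLE factors, library size only, other filters, 1 surrogate variable (sva 3.50.0), a threshold of 0.01, a prior count of 0.5, Spearman's rho and leaving out SONs. Genes were named by rule: the 3 peptide genes, Creb3l1, listed genes with an adjusted p under 0.05, a fixed few and, for each peptide gene, the 3 of highest r among genes of at least 1 CPM. Sim1 and the other listed genes with a symbol were named after their values were seen. The genes, lists and tests were chosen with earlier results of these data known. Planned counts over the lists were not made, since under 80% of each could be named.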

Additional observations from a re-analysis of the deposited data

Results flagged for a closer look

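The Cartpt level of Creb3l1 knockdown replicate 3 stood apart from its group. It was 26.2 CPM, where the other 4 knockdown SONs had 6.57 to 11.2 CPM, and its gap to the nearest SON took 0.765 of the range of the group, above the critical value of 0.71 for 5 values. Of 15 groups of 5 values examined it was the single one past that value, and chance alone flags about 1 in 20 groups. The same SON also held the highest level of Pdyn (259 CPM) and Sim1 (35.3 CPM) of its group, while its Creb3l1 level (8.69 CPM) was the lowest after that of knockdown replicate 1.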

How the results depend on the processing

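The knockdown differences of the 3 peptide genes kept their sign and moved by less than the spread between SONs under every alternative run, which gave -2.29 to -1.99 for Pdyn, -1.36 to -1.18 for Cartpt and -2.48 to -2.32 for Calcb on the log2 scale. With 1 SON left out they were -2.50 to -1.74, -1.73 to -1.02 and -2.55 to -2.20. Calcb was not tested with at least 10 counts in every sample. Which of the 3 genes were called did change with the tool, the block, the filter and the SONs used. Calcb was called in all 10 fits that left out 1 SON, Pdyn in 3 of them (without control replicate 2 or knockdown replicates 3 or 5) and Cartpt in 1 (without knockdown replicate 3), and the cause was not tested.

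Over all genes, 1280 passed an adjusted p of 0.05 in edgeR, 2188 in DESeq2, 3558 with 1 surrogate variable, 308 at a threshold of 0.01 and 9 with the replicate block, which pairs the SONs of an animal. With 1 SON left out the count was between 519 and 1699, and it was below the full count by over 1.5 times without knockdown replicate 1 (519), control replicate 3 (558), control replicate 5 (613), knockdown replicate 2 (614), control replicate 2 (817) or knockdown replicate 4 (834). The called genes were 732 lower and 548 higher, and with library size only 1131 lower and 349 higher. The Creb3l1 difference was -1.21 with the replicate block, no longer past the threshold, and -1.33 to -1.02 with 1 SON left out. The block also ended the calls of Pdyn, Glp1r, Oprk1, Crcp, Ptprn, Cadps2 and Pcsk5. Calcb remained called with it, but was chosen for this difference and passed the filter through its control SONs.

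The r of 3 relations changed sign without the 2 farthest SONs, to -0.26 for Pdyn and Calcb, 0.29 for Pdyn and Creb3l1 and 0.61 for Cartpt and Creb3l1, the last also by rho (0.0667). With 1 SON left out, r lay between 0.59 and 0.96 for Pdyn and Cartpt, -0.17 and 0.30 for Pdyn and Calcb, -0.24 and 0.48 for Cartpt and Calcb, -0.46 and -0.01 for Pdyn and Creb3l1, -0.61 and 0.21 for Cartpt and Creb3l1, 0.13 and 0.52 for Calcb and Creb3l1, 0.74 and 0.89 for Pdyn and Sim1, 0.41 and 0.75 for Cartpt and Sim1, and -0.23 and 0.48 for Calcb and Sim1. Other settings for the counts over lists were not run, as those counts were not made. Depth limits Calcb in knockdown SONs, which held 5 to 8 counts.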
